A study of Mus musculus with 8 samples.

Results

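The genes described here encode receptors for acetylcholine in the mouse brain, 4 muscarinic receptors (Chrm1, Chrm2, Chrm3 and Chrm4) and 6 nicotinic receptor subunits (Chrna3, Chrna4, Chrna5, Chrna7, Chrnb2 and Chrnb4). They were chosen by gene name, as 10 of the 34620 gene names in the table of normalized counts, and all 10 had enough reads to be tested. RNA from the hippocampus was compared with RNA from the prefrontal cortex (PFC), with 4 libraries per region. Each library held tissue of 2 pooled C57Bl6 mice (C57Bl/J6 in the methods), 7 to 9 weeks old and untreated, and neither region carried a transgene or a deletion. The methods count 8 mice in all, which points to the same animals for hippocampus and PFC, but no source used here says which libraries share a pool, and the regions were compared unpaired. The study asked which transcripts, above all long non-coding RNAs, differ between these regions. A normalized count is the number of reads of a gene divided by a size factor of its library, which sets libraries of different depth on a common scale.

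Acetylcholine reaches the cortex and the hippocampus mainly from neurons of the basal forebrain and acts there on receptors of both families. Muscarinic receptors are G protein-coupled: Chrm1, Chrm3 and Chrm5 act through Gq proteins and phospholipase C, while Chrm2 and Chrm4 act through Gi and Go proteins and lower cyclic AMP. Nicotinic receptors are ion channels built from subunits, of which Chrna4 with Chrnb2 forms the main high-affinity nicotine receptor of the brain, Chrna7 forms channels by itself, Chrna5 joins other subunits as an accessory, and Chrna3 with Chrnb4 is best known from autonomic ganglia and the medial habenula.

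Depth ranged from 3164964 to 16636500 reads in genes in the hippocampus libraries and from 4689377 to 10625194 in the PFC libraries, so 3 reads corresponded to between 1.30 and 6.93 normalized counts. Markers of both regions matched the labels, with 5 of 6 CA pyramidal and 5 of 5 dentate granule neuron markers higher in the hippocampus. The PFC had higher levels of 7 of 7 upper and 3 of 8 deep cortical layer markers, and 1 deep layer marker went the other way. Hippocampal markers were also read in the PFC, unevenly by library. The dentate granule marker sum was 1944, 1819, 985 and 500.3 in PFC replicates 1 to 4, against 3699 to 4655 in the hippocampus. Markers of neighbouring tissue also differed: 10 of 11 markers of striatal projection neurons and 3 of 5 of olfactory bulb neurons were higher in the PFC, and 5 of 6 choroid plexus, 6 of 6 oligodendrocyte and 3 of 6 thalamic markers were higher in the hippocampus, with 1 thalamic marker (Ramp3) higher in the PFC. Of 5 astrocyte markers 1 (Gja1) was higher in the hippocampus by limma, and of 8 markers of GABAergic neurons 1 (Vip) in the PFC. Among the astrocyte markers 3 had an unadjusted p under 0.05 in limma, and edgeR and DESeq2 called 2 each. Among the GABAergic markers 3 had such an unadjusted p, edgeR called 1 and DESeq2 called 2. Microglia and endothelium had 0 of 5 past the threshold each, by limma, edgeR and DESeq2, and 0 of 5 at an unadjusted p under 0.05 in limma. The methods call the mice male, yet Xist, which is transcribed from the inactive X chromosome of female cells, had between 1670 and 5233 normalized counts in the 8 libraries, and the Y-linked Ddx3y, Eif2s3y, Kdm5d and Uty were also read in all 8.

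The start regions of 5 members are shown because they cover the genes that differed between the regions and Chrnb2, whose level was alike in both. Each line gives the 150 bases before the start of the gene in RefSeq, on the strand of the gene, 5′ to 3′, with capitals marking a GC box (GGGCGG on either strand). The coordinates are those of GRCm38.p6, a later build than the NCBIM37 genome to which the reads were aligned, and lie at chr6:36387934-36388083 (plus strand) for Chrm2, chr2:91922039-91922188 (plus) for Chrm4, chr2:181039178-181039327 (minus) for Chrna4, chr7:63212527-63212676 (minus) for Chrna7 and chr3:89764633-89764782 (minus) for Chrnb2.
Chrm2: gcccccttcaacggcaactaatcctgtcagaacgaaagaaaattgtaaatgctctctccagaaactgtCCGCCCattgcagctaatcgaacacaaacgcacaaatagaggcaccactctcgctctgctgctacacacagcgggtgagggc
Chrm4: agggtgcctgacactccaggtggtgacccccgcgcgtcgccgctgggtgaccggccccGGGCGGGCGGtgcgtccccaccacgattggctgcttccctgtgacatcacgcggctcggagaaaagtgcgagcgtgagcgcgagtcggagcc
Chrna4: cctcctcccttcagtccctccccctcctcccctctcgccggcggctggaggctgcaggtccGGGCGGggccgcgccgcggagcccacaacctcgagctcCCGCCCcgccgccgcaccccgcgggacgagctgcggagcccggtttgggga
Chrna7: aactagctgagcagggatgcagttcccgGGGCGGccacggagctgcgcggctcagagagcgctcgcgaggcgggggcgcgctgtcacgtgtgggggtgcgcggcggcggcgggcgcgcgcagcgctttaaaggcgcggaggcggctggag
Chrnb2: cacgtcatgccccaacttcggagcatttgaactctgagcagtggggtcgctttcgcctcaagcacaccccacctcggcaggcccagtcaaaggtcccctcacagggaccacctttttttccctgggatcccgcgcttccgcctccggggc

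RefSeq held such a start region for 9 of the 10 genes, and 6 of the 9 had a GC box within 250 bases before the start, against 32.7% of the 32851 start regions of the same length in the mouse table. The 6 are counted per gene, while the 32.7% is a share of start regions. Chrna5 had 2 start regions and is among the 6 through 1 of them, with 4 matches and 65.2% G and C. Its other start region had 0 matches and 40% G and C. Chrm4 and Chrna4 had 3 matches each within those 250 bases, 2 of which fall in the part shown, and in Chrm4 these 2 overlap. Chrm2 and Chrna7 had 1 match each, while none was found in Chrnb2, Chrm3 and Chrnb4. The share of G and C was 70% for Chrm4, 74.4% for Chrna4, 67.2% for Chrna7, 59.6% for Chrnb2 and 50% for Chrm2, beside a median of 52.4% over all start regions. The other motifs searched, on both strands, were CCAAT, found in 2 of the 9 (33.8% of all start regions), TATAAA, found in 0 of the 9 (12.4%), and TGACGTCA, the core of the cyclic AMP response element, found in 0 of the 9 (1.55%). No match overlapped a match of another motif in the stretches shown. A match describes letters only and is not evidence of a bound factor.

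Chrm2, Chrm4 and Chrna4 were higher in the PFC and Chrna7 was higher in the hippocampus, by between 1.42-fold and 1.89-fold. These 4 of 10 genes passed an adjusted p of 0.05 in limma, where 5.68% of the 19789 genes tested did. The 3 genes higher in the PFC compare with 3.13% of all genes, and the 1 gene higher in the hippocampus with 2.55%. In 4 members (Chrm2, Chrna4, Chrna5 and Chrna7) the values of the regions did not overlap, against 11.8% of all genes tested. The median log2 fold change of the members, hippocampus against PFC, was 0.09 and that of all genes 0.00, while the median absolute log2 fold change was 0.57 for the members and 0.23 for all genes. In whole-tissue RNA a lower level may come from fewer cells of a type or from less RNA per cell, and these cannot be told apart.

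**Figure D1:**
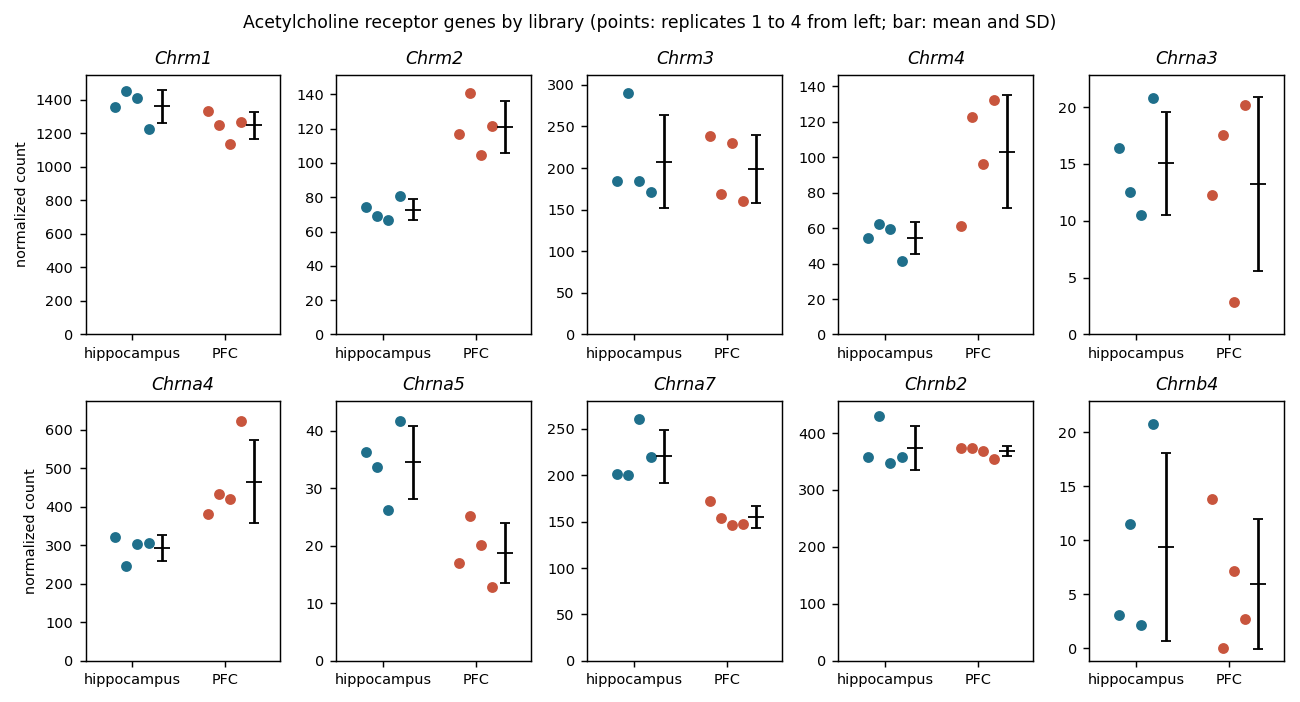
Normalized counts (y axis, a scale per gene) of the 10 receptor genes in the 4 hippocampus and 4 PFC libraries, where points are replicates 1 to 4 from left to right and the black bar gives the mean and SD. The groups lie apart for Chrm2, Chrna4, Chrna5 and Chrna7, and for Chrm4 only PFC replicate 1, at 61.5, falls among the hippocampus values.

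Chrm1, the Gq-coupled receptor that is abundant on forebrain pyramidal neurons, had the highest level per kb of exon among the receptor genes in both regions and did not pass the test between them. Its normalized counts were 1358, 1454, 1408 and 1224 in hippocampus replicates 1 to 4 and 1333, 1250, 1137 and 1268 in PFC replicates 1 to 4. The groups overlapped, with means of 1361 ± 99.2 and 1247 ± 81.2 (SD, n = 4 each). The log2 fold change was 0.13 ± 0.10 (SE), with a 95% confidence interval from -0.08 to 0.33 and an adjusted p of 0.60 from limma. The gene lies on NCBIM37 at chr19:8738495-8758077 on the plus strand.

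Chrm3, also coupled to Gq (chr13:9876381-9878329, minus strand, annotated as 1 exon), varied more between libraries than between regions. Its normalized counts were 184, 291, 184 and 171 in hippocampus libraries and 238, 168, 231 and 160 in PFC libraries. Hippocampus replicate 2 stood above the other 7 libraries, and the groups overlapped throughout. Means were 208 ± 55.7 and 199 ± 40.8 (SD, n = 4 each), and the log2 fold change of 0.05 ± 0.18 (SE; 95% interval from -0.34 to 0.44) had an adjusted p of 0.95 from limma. Its sign turned without hippocampus replicate 2, where it was -0.12.

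Chrm2, the Gi-coupled receptor known as a presynaptic autoreceptor on cholinergic terminals, was higher in the PFC. The hippocampus libraries held 74.4, 69.3, 66.7 and 80.9 normalized counts and the PFC libraries 117, 141, 105 and 122. Every PFC library was above every hippocampus library, and the gap between the groups was wider than the range of the hippocampus values. The means of 72.8 ± 6.25 and 121 ± 15.0 (SD, n = 4 each) differ 1.66-fold, a log2 fold change of -0.72 ± 0.17 (SE; adjusted p = 0.017 from limma). These values rest on 35 to 172 reads per hippocampus library and 73 to 181 per PFC library. The adjusted p rose to 0.066 without hippocampus replicate 3, 0.067 without PFC replicate 2 and 0.058 without PFC replicate 4, with log2 fold changes between -0.79 and -0.65 over all libraries left out in turn. The gene (chr6:36338084-36478414, plus strand) shares 142 exonic bases with 9330158H04Rik, a long non-coding RNA on the other strand. Reads were counted without strand, so reads in the shared stretch cannot be assigned to either gene. 9330158H04Rik itself had a mean of 13.2 normalized counts over the 8 libraries and a log2 fold change of -2.01 (adjusted p = 0.069 from limma).

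Chrm4, the other Gi-coupled receptor of the set, known for its high level in striatal projection neurons, was also higher in the PFC, but its groups overlapped. Normalized counts were 54.5, 62.5, 59.3 and 41.6 in hippocampus libraries and 61.5, 123, 96.0 and 132 in PFC libraries. PFC replicate 1 was below hippocampus replicate 2, and the other 3 PFC libraries were above all hippocampus libraries. Means were 54.5 ± 9.22 and 103 ± 31.9 (SD, n = 4 each), a 1.89-fold difference and a log2 fold change of -0.87 ± 0.24 (SE; adjusted p = 0.043 from limma). The reads behind them numbered 18 to 126 per hippocampus library and 40 to 197 per PFC library. The call was lost when hippocampus replicate 1, 3 or 4 or PFC replicate 2, 3 or 4 was left out, at adjusted p of 0.092, 0.084, 0.12, 0.14, 0.12 and 0.19, and it held without PFC replicate 1 (adjusted p = 0.0069, log2 fold change -1.09) and without hippocampus replicate 2 (0.0096). The gene (chr2:91762346-91769986, plus strand) shares 25 exonic bases with Mdk on the other strand, which had a log2 fold change of -0.04.

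Markers of striatal projection neurons differed between the regions in the same direction as Chrm4. The sum of the 11 markers, among them the adenosine receptor Adora2a, ranged from 1603 to 1953 normalized counts in the hippocampus and was 3106, 3815, 4048 and 5698 in PFC replicates 1 to 4. None of the 11 was at 0 in either region, and 10 of 11 were higher in the PFC. The PFC library with the lowest Chrm4, replicate 1, also had the lowest marker sum, and replicate 4 was the highest in both. This was not particular to them. Replicate 1 was also the lowest and replicate 4 the highest PFC library for Chrna4 and for the olfactory bulb marker sum (335, 339, 457 and 486). The other libraries did not keep this order: PFC replicate 2 had more Chrm4 than PFC replicate 3 (123 against 96.0) but a lower marker sum, and hippocampus replicate 4 had the lowest Chrm4 of all (41.6) with a marker sum of 1901, above those of hippocampus replicates 1 and 3. The 7 upper cortical layer markers, all higher in the PFC, summed to between 3666 and 4271 in hippocampus libraries and between 8708 and 11795 in PFC libraries. Among the PFC libraries this sum was lowest in replicate 1 and highest in replicate 3. The part of any of these cell types in the Chrm4 difference was not tested.

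**Figure D2:**
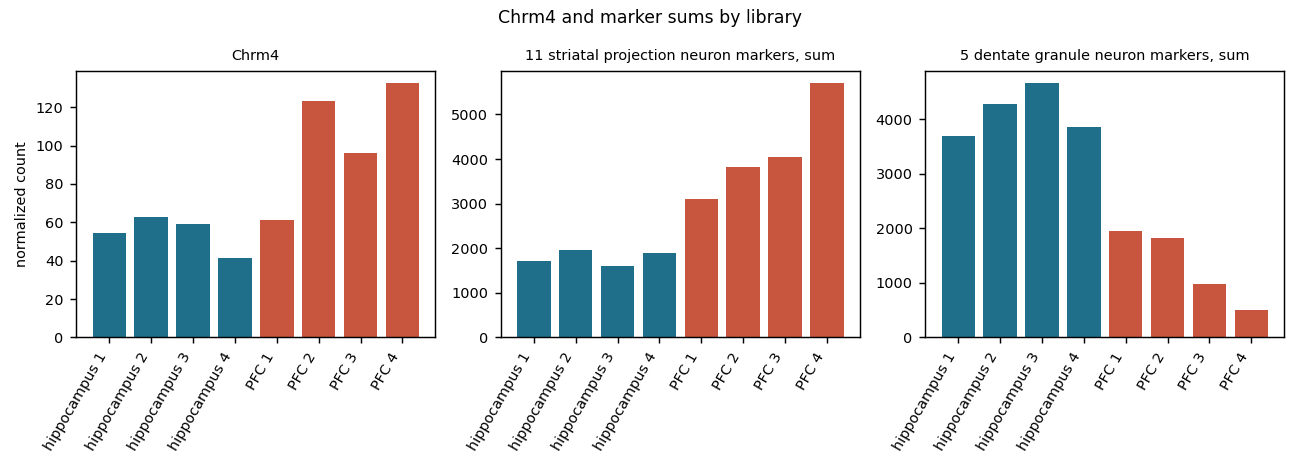
Normalized counts of Chrm4 and summed normalized counts of 11 striatal projection neuron markers and 5 dentate granule neuron markers (y axes from 0) in each of the 8 libraries (x axis). PFC replicate 4 has the highest Chrm4 (132) and striatal sum (5698) and the lowest dentate sum (500.3), and PFC replicate 1 has the lowest Chrm4 (61.5) and striatal sum (3106) of the PFC libraries.

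Chrm5, the remaining muscarinic receptor, coupled to Gq and known from midbrain dopamine neurons, was not among the chosen genes and is given for the order of the family. It was higher in the hippocampus, with normalized counts of 41.1, 36.6, 47.3 and 37.0 there and 24.6, 16.3, 12.9 and 4.71 in the PFC. The groups did not overlap, and the means of 40.5 ± 4.97 and 14.6 ± 8.24 (SD, n = 4 each) differ 2.77-fold (adjusted p = 0.022 from limma, with a log2 fold change of 1.59 ± 0.39 SE). Only 7 to 16 reads per library stood behind the PFC values. Without hippocampus replicate 1 or 3 or PFC replicate 3 or 4 the adjusted p was 0.063, 0.083, 0.068 and 0.058, and without the filter on low genes it was 0.054. The PFC libraries have the same order for Chrm5 as for the sum of the 5 dentate granule neuron markers. That sum was 1944, 1819, 985 and 500.3 in PFC replicates 1 to 4 and between 3699 and 4655 in the hippocampus. The sums of CA pyramidal (3260, 3131, 2369 and 2001) and oligodendrocyte markers (76225, 74107, 54696 and 52164) had this PFC order too. Hippocampus libraries did not keep it: replicate 1 had the lowest dentate sum (3699) but more Chrm5 than replicates 2 and 4. The part of any of these cell types was not tested.

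Levels of different receptors were set side by side per kilobase of annotated exon. In the hippocampus Chrm1 came first with 217 normalized counts per kb, then Chrm3 with 106, Chrm5 with 23.2, Chrm4 with 19.7 and Chrm2 with 12.03. The neighbours Chrm5 and Chrm4 overlapped there, at 20.9 to 27.1 and 15.0 to 22.6 per kb, while Chrm4 was above Chrm2 in 4 of 4 libraries. In the PFC the order was Chrm1 with 199 per kb, Chrm3 with 102, Chrm4 with 37.3, Chrm2 with 19.98 and Chrm5 with 8.38. Chrm4 exceeded Chrm5 per kb in 1 of 4 hippocampus and 4 of 4 PFC libraries. Chrm4 was 5.18% ± 0.49 of the summed muscarinic level per kb in hippocampus libraries and 10.3% ± 3.45 in PFC libraries (SD, n = 4 each), and Chrm1 was 57.6% ± 2.93 and 54.2% ± 2.70. The summed level was 378 ± 43.0 and 367 ± 16.0 per kb, a difference smaller than the spread between hippocampus libraries. Chrm3 and Chrm5 are annotated as a single exon, so their levels per kb rest on exon lengths that may leave out untranslated exons.

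Chrna4, the subunit that forms the high-affinity nicotine receptor with Chrnb2, was higher in the PFC. Normalized counts were 322, 245, 302 and 305 in hippocampus libraries and 381, 434, 421 and 624 in PFC libraries. All PFC libraries were above all hippocampus libraries, and PFC replicate 4 stood well above the other 3. The means were 294 ± 33.4 and 465 ± 108 (SD, n = 4 each), a 1.58-fold difference, and the log2 fold change was -0.64 ± 0.15 (SE; adjusted p = 0.017 from limma). Without PFC replicate 4 the log2 fold change was -0.49 and the adjusted p 0.065. The gene lies at chr2:180753085-180778251 on the minus strand and shares no exonic base with its neighbours.

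Chrnb2, the partner of Chrna4 (chr3:89557370-89568554, minus strand), was nearly level between the regions. The hippocampus libraries held 358, 430, 348 and 358 normalized counts and the PFC libraries 373, 374, 368 and 355. Apart from hippocampus replicate 2, all libraries lay close together, and the groups overlapped. Means were 374 ± 37.9 and 368 ± 8.85 (SD, n = 4 each), and the log2 fold change was 0.02 ± 0.11 (SE), with a 95% interval from -0.22 to 0.26 and an adjusted p of 0.97 from limma.

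The balance of these partners differed between the regions. As Chrnb2 was nearly level, this largely restates the Chrna4 difference (log2 fold change -0.64) and is not separate support for it. Within a library the log2 ratio of Chrna4 to Chrnb2 was -0.15, -0.81, -0.20 and -0.23 in hippocampus libraries and 0.03, 0.21, 0.19 and 0.81 in PFC libraries. Every hippocampus library was below 0 and every PFC library above it. The means of -0.35 ± 0.31 and 0.31 ± 0.34 (SD, n = 4 each) differed by 0.66, with p = 0.0286 in a two-sided exact permutation test, the smallest p that the 70 assignments allow, and 0.0476 after Benjamini-Hochberg adjustment over the 5 ratios computed. Per kb of exon Chrna4 exceeded Chrnb2 in 0 of 4 hippocampus and 4 of 4 PFC libraries, at 0.622 to 0.981 times and 1.11 to 1.92 times its level. The difference of the log2 ratio was -0.51 without hippocampus replicate 2 (exact permutation p = 0.0571). The regions stayed apart there. With any other library left out the exact permutation p was 0.0286, so 0.0571 is a weaker result.

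**Figure D3:**
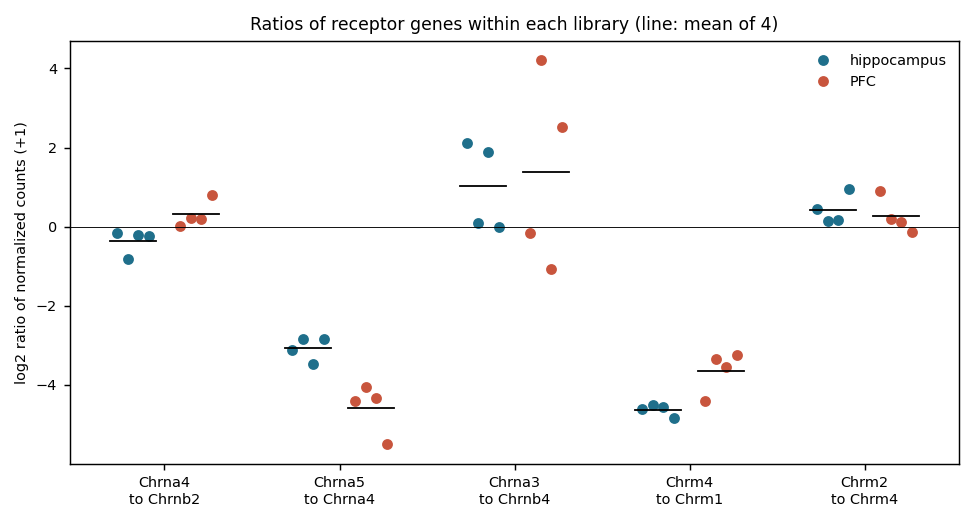
Log2 ratios of normalized counts, each plus 1, for 5 pairs of receptor genes within each library (y axis), with hippocampus and PFC libraries as points and the mean of 4 as a line. The regions lie apart for Chrna4 to Chrnb2, Chrna5 to Chrna4 and Chrm4 to Chrm1, and they overlap for Chrna3 to Chrnb4 and Chrm2 to Chrm4.

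Chrna5, an accessory subunit of receptors that hold Chrna4 and Chrnb2, had higher values in the hippocampus but did not pass the threshold. Normalized counts were 36.4, 33.7, 26.3 and 41.6 in hippocampus libraries and 16.9, 25.1, 20.1 and 12.8 in PFC libraries. The groups did not overlap, though hippocampus replicate 3 and PFC replicate 2 were close. The means of 34.5 ± 6.38 and 18.7 ± 5.203 (SD, n = 4 each) gave a log2 fold change of 0.87 ± 0.30 (SE; unadjusted p = 0.0095 and adjusted p = 0.11 from limma). Between 18 and 84 reads per hippocampus library and 11 and 20 per PFC library were counted. The log2 ratio of Chrna5 to Chrna4 was -3.07 ± 0.30 in hippocampus libraries and -4.58 ± 0.64 in PFC libraries (SD, n = 4 each), a difference of 1.51 without overlap (exact permutation p = 0.0286, adjusted over 5 ratios 0.0476). This ratio had an exact permutation p of 0.0286 with each library left out in turn, at differences between 1.20 and 1.68. No ratio had a lower p with a library left out, so the equal p does not measure the size of the difference.

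Chrna7, whose product binds alpha-bungarotoxin as a channel of like subunits, was higher in the hippocampus. Normalized counts were 201, 200.1, 261 and 219 in hippocampus libraries and 172, 154, 146 and 148 in PFC libraries. The groups did not overlap, and the highest value was that of hippocampus replicate 3. The means were 220.5 ± 28.5 and 155 ± 11.9 (SD, n = 4 each), a 1.42-fold difference and a log2 fold change of 0.50 ± 0.14 (SE; adjusted p = 0.046 from limma). The adjusted p lay just under the threshold and was above it without hippocampus replicate 1, 3 or 4 (0.081, 0.19 and 0.095) or PFC replicate 2, 3 or 4 (0.098, 0.14 and 0.13). With each library left out in turn the log2 fold change stayed between 0.42 and 0.55. The gene lies at chr7:70243578-70357455 on the minus strand. Markers of dentate granule and CA pyramidal neurons moved the same way, with CA sums of 4671 to 5284 in hippocampus libraries and 2001 to 3260 in PFC libraries and none of the 11 markers at 0, and their part was not tested.

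Chrna5, Chrna3 and Chrnb4 lie beside each other at chr9:54828687-54855586 (plus strand), chr9:54859150-54874366 (minus) and chr9:54875963-54896351 (minus), 3564 and 1597 bases apart and with no shared exon. Chrna3 and Chrnb4, the partners known from the medial habenula, were low. Chrna3 ranged from 10.5 to 20.8 normalized counts in hippocampus libraries and from 2.86 to 20.2 in PFC libraries, on 2 to 38 reads. Its log2 fold change was 0.39 with a 95% interval from -0.65 to 1.42 (adjusted p = 0.79 from limma). Chrnb4 had between 4 and 12 reads per library in hippocampus libraries and between 0 and 9 in PFC libraries, so its log2 fold change of 0.73 had an interval from -0.92 to 2.39. In PFC replicate 2 no Chrnb4 read was counted, where 3 reads would equal 3.77 normalized counts. Neither gene passed the test, and both intervals hold differences in either direction. The log2 ratio of Chrna3 to Chrnb4 had an exact permutation p of 0.80. Markers of medial habenula neurons summed to between 130 and 203 normalized counts in hippocampus libraries and between 209 and 268 in PFC libraries, and 0 of 5 passed the threshold in limma, where 2 had an unadjusted p under 0.05 (edgeR called 0 and DESeq2 called 1). Lrrc55 made up most of these sums, with means of 110 in the hippocampus and 154 in the PFC, followed by Tac2 (32.1 and 62.1). Gpr151 (15.1 and 12.1), Gng8 (8.29 and 10.2) and Pou4f1 (4.11 and 3.17) were low in both regions.

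Per kb of exon the nicotinic order in the hippocampus was Chrnb2 with 69.4 normalized counts per kb, Chrna4 with 59.5, Chrna7 with 48.5, Chrna5 with 11.5, Chrna3 with 4.82 and Chrnb4 with 2.69. In the PFC it was Chrna4 with 94.2, Chrnb2 with 68.3, Chrna7 with 34.1, Chrna5 with 6.25, Chrna3 with 4.24 and Chrnb4 with 1.70. Chrna7 was below both Chrna4 and Chrnb2 in all 8 libraries. Of the summed level of the 6 subunits per kb, Chrna4 held 30.3% ± 3.23 in hippocampus libraries and 44.7% ± 6.17 in PFC libraries (SD, n = 4 each), while the sum itself was 196 ± 4.70 and 209 ± 18.9. The Chrna4 shares of the regions did not overlap.

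**Figure D4:**
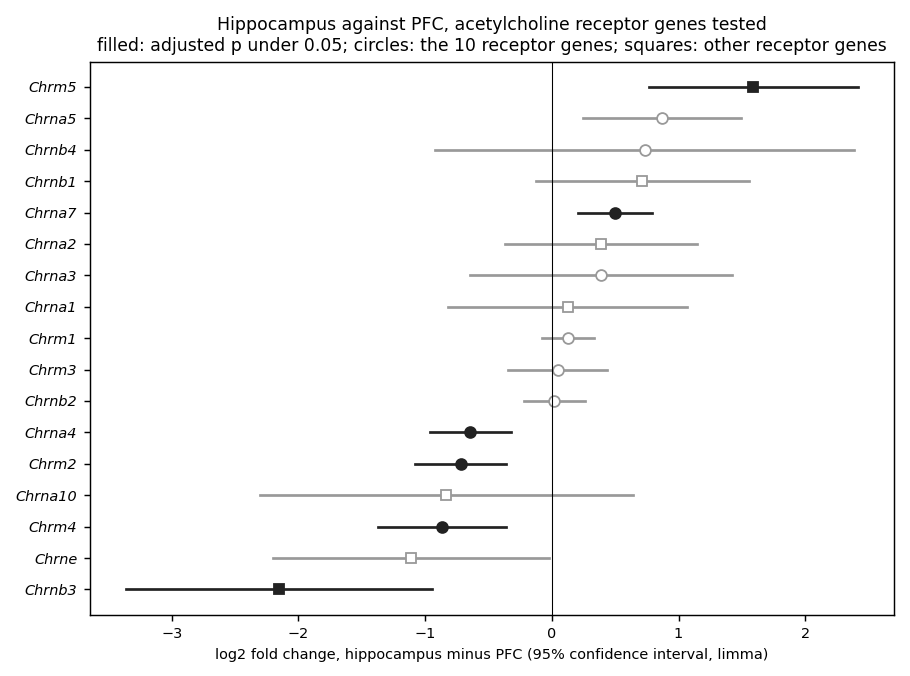
Log2 fold change, hippocampus minus PFC, with its 95% confidence interval from limma (x axis), for the 17 acetylcholine receptor genes tested (y axis). Circles are the 10 chosen genes and squares the other 7, filled where the adjusted p was under 0.05; Chrna7 and Chrm5 are filled on the hippocampus side and Chrna4, Chrm2, Chrm4 and Chrnb3 on the PFC side.

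Muscarinic receptors were compared within a library as well. The log2 ratio of Chrm4 to Chrm1, which couple to different G proteins, was -4.61, -4.52, -4.55 and -4.85 in hippocampus libraries and -4.42, -3.33, -3.55 and -3.25 in PFC libraries. PFC replicate 1 lay just above the highest hippocampus value, and the other PFC libraries were well above it. The difference of means was -0.99 (exact permutation p = 0.0286, adjusted over 5 ratios 0.0476). Chrna4 to Chrnb2 and Chrna5 to Chrna4, which share Chrna4, had the same p and adjusted p. With 70 assignments an adjusted p under 0.05 needs several ratios at the smallest p, so these adjusted values are not separate support. For Chrm4 to Chrm1 the exact permutation p was 0.0571 when any 1 of the 4 hippocampus libraries was left out, at differences from -1.03 to -0.92. The regions stayed apart in these sets. With any 1 of the PFC libraries left out the exact permutation p was 0.0286, so 0.0571 is a weaker result. The log2 ratio of Chrm2 to Chrm4, which share their G proteins, was 0.42 ± 0.37 in hippocampus libraries and 0.28 ± 0.45 in PFC libraries (SD, n = 4 each; exact permutation p = 0.57), and the regions overlapped.

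Of the 11 other acetylcholine receptor genes, 7 had enough reads to be tested, and 1 was higher in the hippocampus (Chrm5) and 1 in the PFC (Chrnb3). Chrnb3, a subunit known from catecholamine neurons and the habenula, had 3.46, 0.96, 5.25 and 0 normalized counts in hippocampus libraries and 9.22, 12.6, 12.9 and 10.1 in PFC libraries. The groups did not overlap, and the log2 fold change was -2.15 ± 0.57 (SE; adjusted p = 0.034 from limma), but no library held more than 15 reads. The adjusted p was 0.087 in edgeR, 0.052 in DESeq2, and 0.074 without hippocampus replicate 4 and 0.054, 0.090, 0.11 and 0.11 without PFC replicates 1 to 4 in limma. Chrna2, expressed in certain hippocampal interneurons, had means of 17.7 ± 5.54 and 13.03 ± 3.29 (SD, n = 4 each; adjusted p = 0.68 from limma). The muscle-type subunits Chrna1 and Chrnb1 had means of 13.02 and 10.98 and of 24.8 and 13.8 normalized counts in the hippocampus and the PFC, and Chrne 2.58 and 7.67, none past the threshold. Chrna10 had means of 0.50 and 1.96, and Chrna6, Chrna9, Chrnd and Chrng were below the limit for testing, with 0 to 2 reads per library.

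Of 7 genes tested that make, carry and break down acetylcholine, 1 passed the threshold in limma, edgeR and DESeq2, and 2 had an unadjusted p under 0.05 in limma. The gene that passed was Chat, the enzyme of acetylcholine synthesis, at 2.16, 0, 2.63 and 0 normalized counts in hippocampus libraries and 13.8, 8.79, 10.0 and 14.8 in PFC libraries (adjusted p = 0.0064 from limma, with a log2 fold change of -2.78 ± 0.56 SE). Only 0 to 5 reads per hippocampus library and 7 to 22 per PFC library stood behind the Chat values. Slc10a4, a protein of cholinergic synaptic vesicles, had 1.73, 4.81, 2.63 and 0 normalized counts in hippocampus libraries against 7.68, 10.04, 7.16 and 7.40 in PFC libraries. Its groups did not overlap, but it did not pass the threshold (adjusted p = 0.097 from limma, with a log2 fold change of -1.71 ± 0.56 SE). Isl1, a transcription factor of cholinergic and striatal neurons, also had higher values in the PFC (log2 fold change -2.18, adjusted p = 0.025 from limma), on 0 to 6 reads per hippocampus library and 4 to 23 per PFC library. The choline transporter Slc5a7 had means of 24.3 ± 5.81 and 29.3 ± 14.3 (SD, n = 4 each; adjusted p = 0.86 from limma). In all 2 of 5 tested markers of cholinergic neurons were higher in the PFC, their list summed to between 34.7 and 51.0 in hippocampus libraries and between 53.0 and 85.4 in PFC libraries, and Lhx8 was at 0 in all 8 libraries. The part of cholinergic cell bodies in the receptor differences was not tested. The median log2 fold change was -0.30 for the 7 genes of synthesis, transport and breakdown, beside 0.00 for all genes. Slc18a3 was not analysed here.

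Of 9 genes listed with nicotinic receptor chaperones and Ly6 proteins, which help subunits fold or bind the receptors at the membrane, limma called only Vsnl1. Vsnl1 encodes a calcium sensor rather than a Ly6 protein. It had 3990, 2986, 4165 and 3844 normalized counts in hippocampus libraries and 4681, 4668, 5531 and 4839 in PFC libraries. Its groups did not overlap, and its log2 fold change of -0.40 had an adjusted p of 0.043 from limma and of 0.053 after TMM scaling, and it was above the threshold with 7 of the 8 libraries left out in turn (0.051 to 0.18), the exception being hippocampus replicate 2. Without the filter on low genes it was 0.092. Of the 9 genes 4 had an unadjusted p under 0.05 in limma, and edgeR called 2 (Vsnl1 and Lypd6b) and DESeq2 called 3 (also Lypd1). The chaperone Ric3 and the Ly6 protein Lynx1 had log2 fold changes of 0.04 and -0.01, and the median of the 9 genes was -0.06.

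Of 12 genes tested from the Gq pathway, limma and edgeR called only Plcb4, a phospholipase C that Gq activates, and DESeq2 called 3 (also Itpr1 and Plcb1). It had 378, 270.4, 348 and 388 normalized counts in hippocampus libraries and 558, 766, 881 and 982 in PFC libraries (adjusted p = 0.00031 from limma, with a log2 fold change of -1.18 ± 0.16 SE). Of 11 genes of the Gi and Go pathway, Rgs4, which ends signalling by Gi and Gq proteins, and the G protein Gnaz were higher in the PFC, and DESeq2 called Kcnj9 as well. Rgs4 had 1727, 1570, 1444 and 1874 normalized counts in hippocampus libraries and 3364, 3709, 3972 and 5109 in PFC libraries, with a log2 fold change of -1.28 ± 0.13 (SE; adjusted p = 1.8e-05 from limma). Gnaz had means of 977 ± 24.3 and 1390 ± 166 (SD, n = 4 each), with a log2 fold change of -0.50 ± 0.10 (SE; adjusted p = 0.0074 from limma). Plcb4, Rgs4 and Gnaz kept an adjusted p under 0.05 in all alternatives run. The median log2 fold change was -0.14 over the Gq genes and -0.19 over the Gi and Go genes.

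The genes whose levels followed a called member most closely over the 8 libraries, among the 10745 genes that averaged 50 or more normalized counts, are given as a description, since all points share library and region. For Chrm2 they were Paqr7, Gm11273 and Btbd10 (Pearson r of 0.97, 0.97 and 0.96), and for Chrm4 Mon1a, Gtf2ird1 and Nfya (0.97 each). For Chrna4 they were Arnt2, Shisa5 and Tuba8 (0.99 each), and for Chrna7 Camta1, Adcy1 and Plxna4 (0.98 each).

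**Figure D5:**
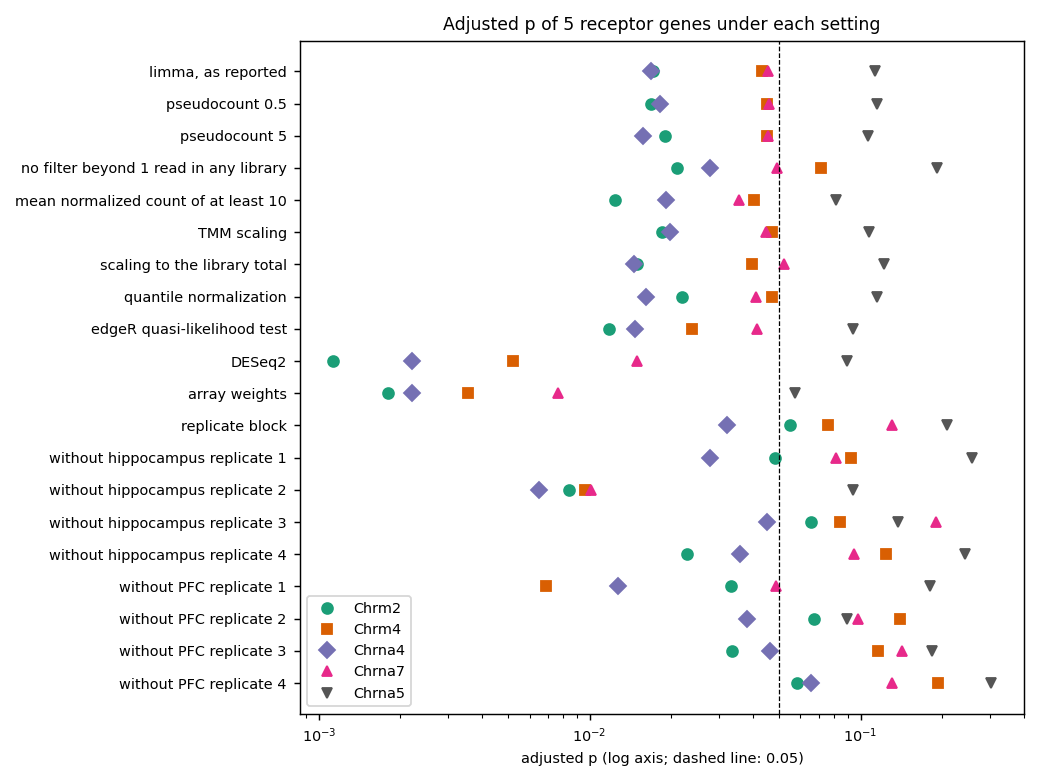
Adjusted p (x axis, log scale, dashed line at 0.05) of 5 receptor genes under the reported test and 19 alternatives (y axis). Chrna4 crosses the line only without PFC replicate 4, Chrm2 in 4 alternatives, Chrm4 and Chrna7 in 8 each, and Chrna5 lies above the line in all.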

How the data were processed

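Reads were quality-trimmed by the authors (FastX-Toolkit, Phred score of 28) and mapped to NCBIM37 by TopHat2 2.0.9. HTSeq 0.6.0 then gave read counts by gene name, ignoring strand, and DESeq scaled them. The deposited unit is a signal, namely a read count over the size factor of its library. HTSeq's rule for overlapping genes is not given in the sources used here. The smallest value above 0 in a library is 1 read, and on that basis size factors gave back whole reads for 100% of values (within 1e-06), with factors from 0.433 to 2.31.

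Regions were compared with limma 3.58.1 (trend, two-sided) on log2(normalized count + 1) over 19789 genes with a mean of at least 1, adjusted by Benjamini-Hochberg. The pseudocount draws the fold changes of low genes toward 0. edgeR 4.0.16 and DESeq2 1.42.0 were run on the recovered reads. Other alternatives were pseudocounts, filters, TMM, library-total and quantile scaling, array weights, a replicate block and leaving out each library. Exon lengths came from GENCODE M1, start regions from RefSeq. R was 4.3.3 and Python 3.11.15 (numpy 2.4.6, pandas 2.3.3, scipy 1.17.1, matplotlib 3.10.9).

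Named were all members, the other receptor genes, genes past the threshold in 4 further pathway lists (up to 4 each) and in 15 cell type lists (up to 2 each), and the 3 genes most like each called member. Other genes, such as Ric3, Lynx1 and Slc5a7, were chosen after their values were seen. Values of 1 listed gene are not reported here. Members and lists were chosen with earlier results of these data known. Labels give each library as a biological replicate of 2 mice, and the methods name a slightly older age range in 1 place. Libraries were amplified without molecular identifiers, so reads are not independent molecules.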

Additional observations from a re-analysis of the deposited data

Results flagged for a closer look

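In hippocampus replicate 2, Chrm3 (291 normalized counts) and Chrnb2 (430.1) stood above and the log2 ratio of Chrna4 to Chrnb2 (-0.81) below the other 3 hippocampus libraries by more than Dixon's 95% critical value for 4 values. These were 3 of 44 groups of 4 values examined, where chance alone marks about 1 in 20. All 3 involve the same library, and the Chrnb2 value enters both its own mark and that of the ratio.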

How the results depend on the processing

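Among the 10 members no called gene changed direction under the 19 alternatives. Chrna4 lost its call in 1 of them, Chrm2 in 4, and Chrm4 and Chrna7 in 8 each. Over all genes, 1124 calls became 2441 with array weights and 729 with a replicate block. With each library left out in turn the calls over all genes ranged from 573 to 2216, and the members called from 0 to 4. The count of 0 came without PFC replicate 4, where limma left 5 members with an unadjusted p under 0.05. With the replicate block 1 member (Chrna4) was called, and Chrm2, Chrm4 and Chrna7 had adjusted p of 0.055, 0.076 and 0.13, and Vsnl1 0.080. The number of mice points to shared animals, but whether replicate numbers mark shared mice is not given, and same-numbered libraries had correlations of -0.32, -0.24, -0.02 and 0.04 between their deviations from the region means. Chrm4 had an adjusted p of 0.072 without the filter on low genes and Chrna7 0.052 after library-total scaling.

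Log2 fold changes of genes that were not called turned sign for Chrm3 with array weights (-0.058) and without hippocampus replicate 2 (-0.12), PFC replicate 2 (-0.026) or PFC replicate 4 (-0.050), for Chrna3 without PFC replicate 3 (-0.15), and for Chrnb2 with array weights (-0.038), after library-total scaling (-0.00050) and without hippocampus replicate 2 (-0.051). With libraries left out in turn their ranges were -0.12 to 0.14, -0.15 to 0.66 and -0.051 to 0.050. The alternatives for the ratios were chosen after seeing the data. With libraries left out in turn the difference of the log2 ratio ranged from -0.76 to -0.49 for Chrna4 to Chrnb2, from -1.25 to -0.86 for Chrm4 to Chrm1, from -1.16 to 0.60 for Chrna3 to Chrnb4, from -0.026 to 0.36 for Chrm2 to Chrm4, and from 1.20 to 1.68 for Chrna5 to Chrna4. It turned sign for Chrna3 to Chrnb4 without PFC replicate 2 (0.60) or PFC replicate 4 (0.04) and for Chrm2 to Chrm4 without hippocampus replicate 4 (-0.026). The cause of these changes was not tested. Chrnb4 could not be tested under the filter at a mean of 10, and it had at most 12 reads per library.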
